A study of Urosaurus graciosus
Urosaurus ornatus and Urosaurus graciosus and Urosaurus ornatus with 18 samples.

Results

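Livers of 3 hybrid lizards and 3 Urosaurus graciosus, all held at 40 °C, were compared across every gene of the deposited count table. They are 6 of the 18 animals sequenced, and they were chosen by their labels alone. The hybrids carry the letters I, K and X (group Hy_40) and the U. graciosus the letters P, Q and T (group Ug_40). All 18 animals were males kept for 48 h at 36 °C or 40 °C before the liver was taken, with 3 animals to each lineage and temperature. The other groups used here for reference are hybrids A, B and D and U. graciosus J, R and S at 36 °C, and 6 U. ornatus, the other parent, of which E, F and H were kept at 36 °C and L, N and O at 40 °C. The study asked how antioxidant genes are expressed in hybrids, and its title speaks of mitochondrial DNA passed between the species and of damage by reactive oxygen species. The sources used here do not give the cross behind each hybrid, its mitochondrial type or the ages of the animals.

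Urosaurus are small lizards, and a hybrid liver cell can carry gene copies from both species, at a share of genes that depends on the cross. An allele that one parent expresses at another level than its counterpart can then shift the summed level of the gene, and a regulator from one parent can act on both copies. Respiration in mitochondria releases superoxide, which superoxide dismutases turn into hydrogen peroxide. Catalase, glutathione peroxidases and peroxiredoxins remove the peroxide, and heat raises both the rate of respiration and the load of misfolded proteins that chaperones handle. Subunits encoded in mitochondrial DNA are assembled with many more from the nucleus, and the former were not analysed here.

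Levels are CPM, the count as a share of the TMM-scaled library total, so they may be compared between animals but not between genes, whose lengths were not used. Totals in the 6 libraries ran from 17216034 to 27737101 counts. Hybrid X stood apart from the other 5. Its log2 CPM correlated with theirs at 0.860 to 0.884, whereas hybrids I and K correlated at 0.970, the U. graciosus among themselves at 0.940 to 0.965, and I and K with the U. graciosus at 0.936 to 0.957. Its summed hepatocyte markers came to 35902 CPM, against 81359 to 155532 in the others, its cell cycle genes to 1248 CPM against 93.6 to 189, and its stellate cell and fibroblast markers to 4484 CPM against 605 to 1211. U. graciosus T stood apart in cytosolic heat shock genes, with 27982 CPM against 7324 in X and 2681 to 2932 in the others. Hepatocyte transcripts were abundant in every library, as in liver. TF, the iron carrier of plasma, stood at 7251 CPM in X and at 19804 to 58339 CPM in the others, and APOB, the core protein of lipoproteins, at 6841 CPM and at 20021 to 27110 CPM. In bulk tissue, fewer cells of a type and less RNA per cell cannot be told apart. Many lists and genes whose difference moved strongly with X or T are given with and without that animal.

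**Figure D1:**
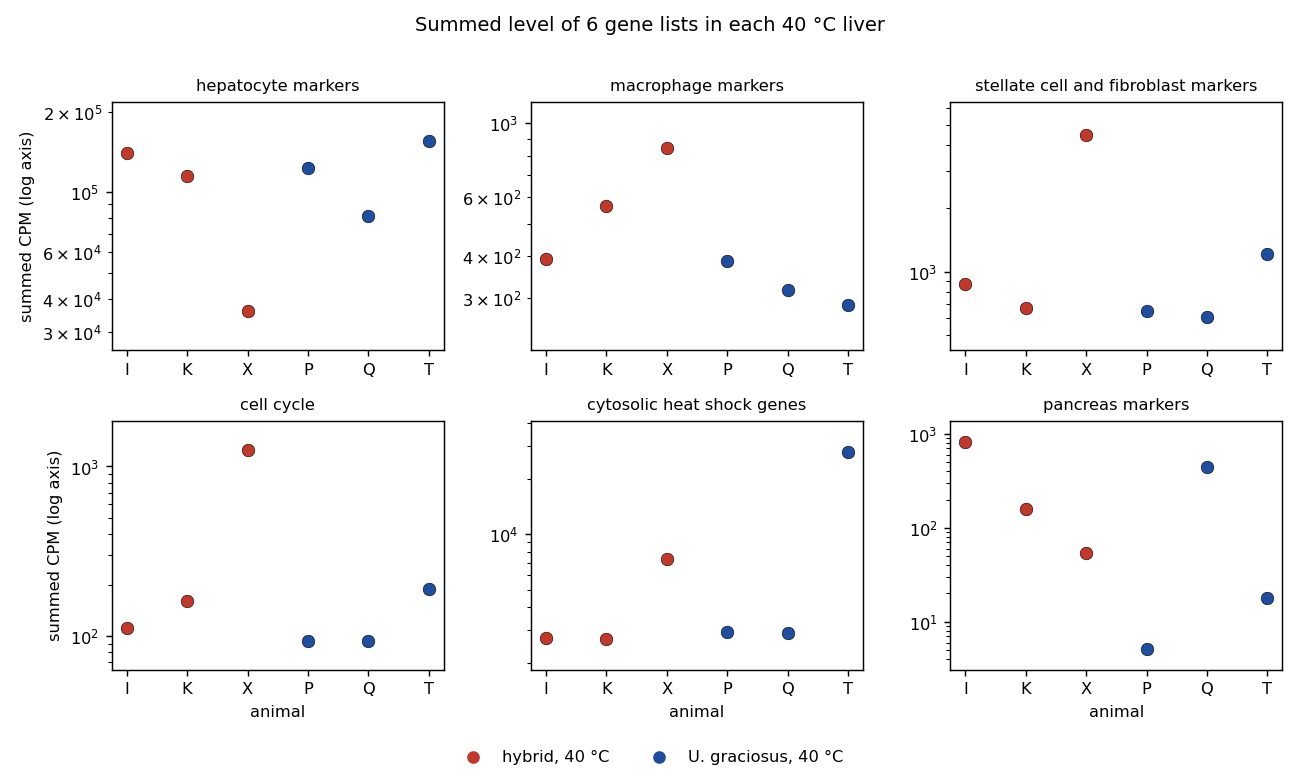
Summed CPM of 6 gene lists (log axis, each panel with its own range) in each of the 6 livers at 40 °C, 1 point per animal, hybrids in red and U. graciosus in blue. Hybrid X lies lowest for hepatocyte markers, at 35902 CPM, and highest for macrophage, fibroblast and cell cycle genes, while U. graciosus T lies highest for heat shock genes, at 27982 CPM.

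Hybrids and U. graciosus at 40 °C differed at few genes by the fit across all libraries, and these included a DNA methyltransferase, an interferon signalling factor, a coenzyme Q enzyme and several membrane proteins. Of 15856 genes tested, 20 passed (0.126%), 9 higher in the hybrids (0.0568%) and 11 lower (0.0694%), by edgeR's quasi-likelihood test with a Benjamini-Hochberg adjusted p under 0.05. Of the 20, 14 carry a symbol, 6 of them higher and 8 lower, and the others carry placeholder names. At an unadjusted p under 0.05 there were 1230 genes higher in hybrids (7.76%) and 774 lower (4.88%). In all 20 called genes the 3 hybrids lay on one side of the 3 U. graciosus, as they did for 1117 genes above (7.04%) and 1151 below (7.26%) among all tested. The p-values rest on a spread between animals estimated within all groups of the 18 libraries, so animals outside this comparison help to set it. The number of calls moved with single libraries, from 3 without Q and 4 without P to 6 without I, 10 without X, 10 without T and 24 without K, and DNMT1 and one placeholder gene passed in all 6 of these fits. It moved with the test too, to 425 by DESeq2, which called all 20, and to 168 by limma voom with quality weights, which called 19 of them. A fit of the 6 libraries alone called 2 genes, none of them among the 20, though all 20 had an unadjusted p under 0.05 there.

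DNMT1, the enzyme that copies DNA methylation onto the new strand after replication, had the smallest p. Hybrids I, K and X had 55.4, 101 and 73.2 CPM, in that order, and P, Q and T of U. graciosus had 18.3, 19.2 and 19.2 CPM. The lowest hybrid was thus far above a tight U. graciosus group, and X lay between the other hybrids. The difference was 2.02 ± 0.23 on the log2 scale (SE, 3 animals against 3, adjusted p = 0.00225), 4.05-fold. It passed in all 6 leave-outs, with adjusted p up to 0.0208. In the animals at 36 °C, DNMT1 stood at 115, 89.2 and 133 CPM in hybrids A, B and D and at 35.8, 39 and 26.7 CPM in U. graciosus J, R and S. That is a difference of 1.73 ± 0.22 (adjusted p = 0.00485) in other animals. The fit takes its spread from all groups together, so the p-values at both temperatures are not independent. All 6 U. ornatus lay at 33.1 to 42.4 CPM, below every hybrid. BRWD1, a bromodomain protein that binds chromatin, went the other way, at 83.8, 92.8 and 68.3 CPM in the hybrids and 170, 171 and 180 CPM in U. graciosus. The hybrids lay within the range of neither warm nor cool U. graciosus, and I and K lay within the 81.7 to 120 CPM of U. ornatus. Its difference was -1.09 ± 0.17 (adjusted p = 0.0166), and it passed in the leave-out of K only, with 0.0665 without I, 0.066 without X, 0.0674 without P, 0.073 without Q and 0.0561 without T. At 36 °C the difference was -0.69 ± 0.17 (adjusted p = 0.148), again with no overlap.

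The other genes that were higher in hybrids encode a metabolic enzyme and proteins of the membrane and the cytoskeleton. HPDL is a mitochondrial relative of the tyrosine-degrading enzyme HPD and takes part in making the head group of coenzyme Q in human cells. Hybrids I, K and X had 10.3, 5.78 and 1.96 CPM and P, Q and T had 0.738, 0.273 and 0.133 CPM. The hybrids spread widely, yet the lowest was above the highest U. graciosus, and all 6 U. ornatus lay at 0.0936 to 0.184 CPM. The difference was 3.98 ± 0.64 (adjusted p = 0.0186), and it was 3.93 ± 0.61 at 36 °C (adjusted p = 0.0192). The call was lost without I (0.0665), Q (0.128) and T (0.0788). LRFN5, a leucine-rich adhesion protein of synapses, stood at 13.6, 10.1 and 10.6 CPM in hybrids and 1.72, 3.42 and 1.2 CPM in U. graciosus. Every hybrid of either temperature was above every parent animal, since the hybrids at 36 °C lay at 17 to 20.5 CPM, the U. graciosus at 2.88 to 3.13 CPM and the U. ornatus at 0.31 to 4.02 CPM. The differences were 2.41 ± 0.36 at 40 °C (adjusted p = 0.0131) and 2.60 ± 0.36 at 36 °C (0.00644). The call at 40 °C was lost without I (0.0634), P (0.0866) and T (0.0507).

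In 2 further membrane genes no read was counted in U. graciosus at 40 °C. IL1RAPL1, a synaptic protein of the interleukin 1 receptor family, stood at 5.52, 7.25 and 1.33 CPM in hybrids and at 0 in P, Q and T. That is at least 91.6-fold higher, taking 3 counts for the whole group as the floor, from 353 counts in the hybrids (adjusted p = 0.0273). Were each fragment counted as 2, which the excess of even counts leaves possible, the bound would be 45.9-fold. It passed in the leave-out of X (0.0176) and in no other (0.0505 to 0.127 without I, K, P, Q or T). TMEM233, a small membrane protein, stood at 2.21, 3.37 and 3.01 CPM in hybrids and at 0 in U. graciosus, at least 58.1-fold higher from 224 counts (adjusted p = 0.0104), or 29.1-fold with halved counts. Its call was lost without P (0.0657) and Q (0.073). Both were detected at a low level in U. graciosus at 36 °C, up to 0.238 CPM for IL1RAPL1 and up to 0.165 CPM for TMEM233, where all 3 hybrids were again higher, at 1.57 to 2.4 and at 1.5 to 2.79 CPM. The U. ornatus lay at 0 to 0.284 CPM for IL1RAPL1 and at 0.187 to 1.5 CPM for TMEM233. For TMEM233 the lowest hybrid, B, and the highest U. ornatus, N, were thus equal as printed, with B higher only before rounding. TLNRD1, a protein that bundles actin filaments, stood at 11.1, 11 and 16.7 CPM in hybrids and 2.7, 4.17 and 3.47 CPM in U. graciosus, a difference of 1.90 ± 0.32 (adjusted p = 0.0273). Here the hybrids overlapped U. ornatus, at 9.83 to 16.3 CPM. It passed without K (0.0407) and in no other leave-out (0.0634 to 0.112 without I, X, P, Q or T).

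The genes that were lower in the hybrids than in U. graciosus included a collagen, a glycosyltransferase and regulators of signalling and cilia. COL5A3, a chain of the fibrillar collagen V, stood at 3.89, 1.94 and 2.03 CPM in hybrids and 28.3, 28.2 and 17.5 CPM in U. graciosus. Hybrid X, whose summed fibroblast markers were high, was as low as K. The difference was -3.24 ± 0.49 (adjusted p = 0.0131), and it was -3.62 ± 0.50 at 36 °C (0.00644), where the hybrids lay at 2.22 to 2.97 CPM and U. graciosus at 16.5 to 54.6 CPM. The U. ornatus were lower than every hybrid, at 0.468 to 1.67 CPM. The call at 40 °C was lost without K (0.0505), X (0.0715), P (0.0674) and Q (0.073). GALNT14, which starts O-linked sugar chains on secreted proteins, stood at 1.5, 0.238 and 1.12 CPM in hybrids and 34.5, 33.1 and 9.87 CPM in U. graciosus. It was expressed in both parents, at 17.8 to 48.6 CPM in U. ornatus and 3 to 23.4 CPM in U. graciosus at 36 °C, and all 6 hybrids lay below all 12 parent animals. The difference was -4.75 ± 0.74 (adjusted p = 0.0166) at 40 °C and -3.74 ± 0.71 at 36 °C (0.0579). Its call was lost without I (0.0634), X (0.0954), P (0.0674) and Q (0.073).

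SPRED3, an inhibitor of Ras signalling, was close to absent in hybrids, at 0.0836, 0 and 0.105 CPM, against 6.52, 9.46 and 1.53 CPM in U. graciosus. The U. ornatus, at 0 to 0.737 CPM, overlapped the hybrids. The difference was -6.41 ± 1.18 (adjusted p = 0.0499), from 5 counts in the hybrid group, and it passed only without T (0.0463; 0.0793 to 0.139 without I, K, X, P or Q). OFD1, a protein of centrioles and the base of cilia, stood at 15.1, 17.6 and 9.93 CPM in hybrids and 42.5, 29.1 and 35.1 CPM in U. graciosus, a difference of -1.32 ± 0.24 (adjusted p = 0.0394; 0.0439 without K, 0.073 to 0.139 without each other library). LENG9 stood at 3.01, 2.14 and 2.62 CPM in hybrids and 9.84, 9.39 and 5.6 CPM in U. graciosus, -1.68 ± 0.29 (adjusted p = 0.035; 0.0226 without T, 0.072 to 0.138 without each other library). All 6 hybrids lay below all 12 parents for LENG9, whereas OFD1 overlapped U. ornatus. NFXL1, a zinc finger protein, showed the smallest change of the 20 and the tightest groups, at 12.9, 13.5 and 13.1 CPM against 23.4, 23.1 and 23 CPM. Its difference of -0.82 ± 0.14 (adjusted p = 0.0362) hardly moved when a library was left out, from -0.83 to -0.80, but the adjusted p then ran from 0.0661 without K to 0.128 without Q. NFXL1 was the one called gene whose groups overlapped at 36 °C, with a difference of -0.20 ± 0.14 (adjusted p = 0.831).

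**Figure D2:**
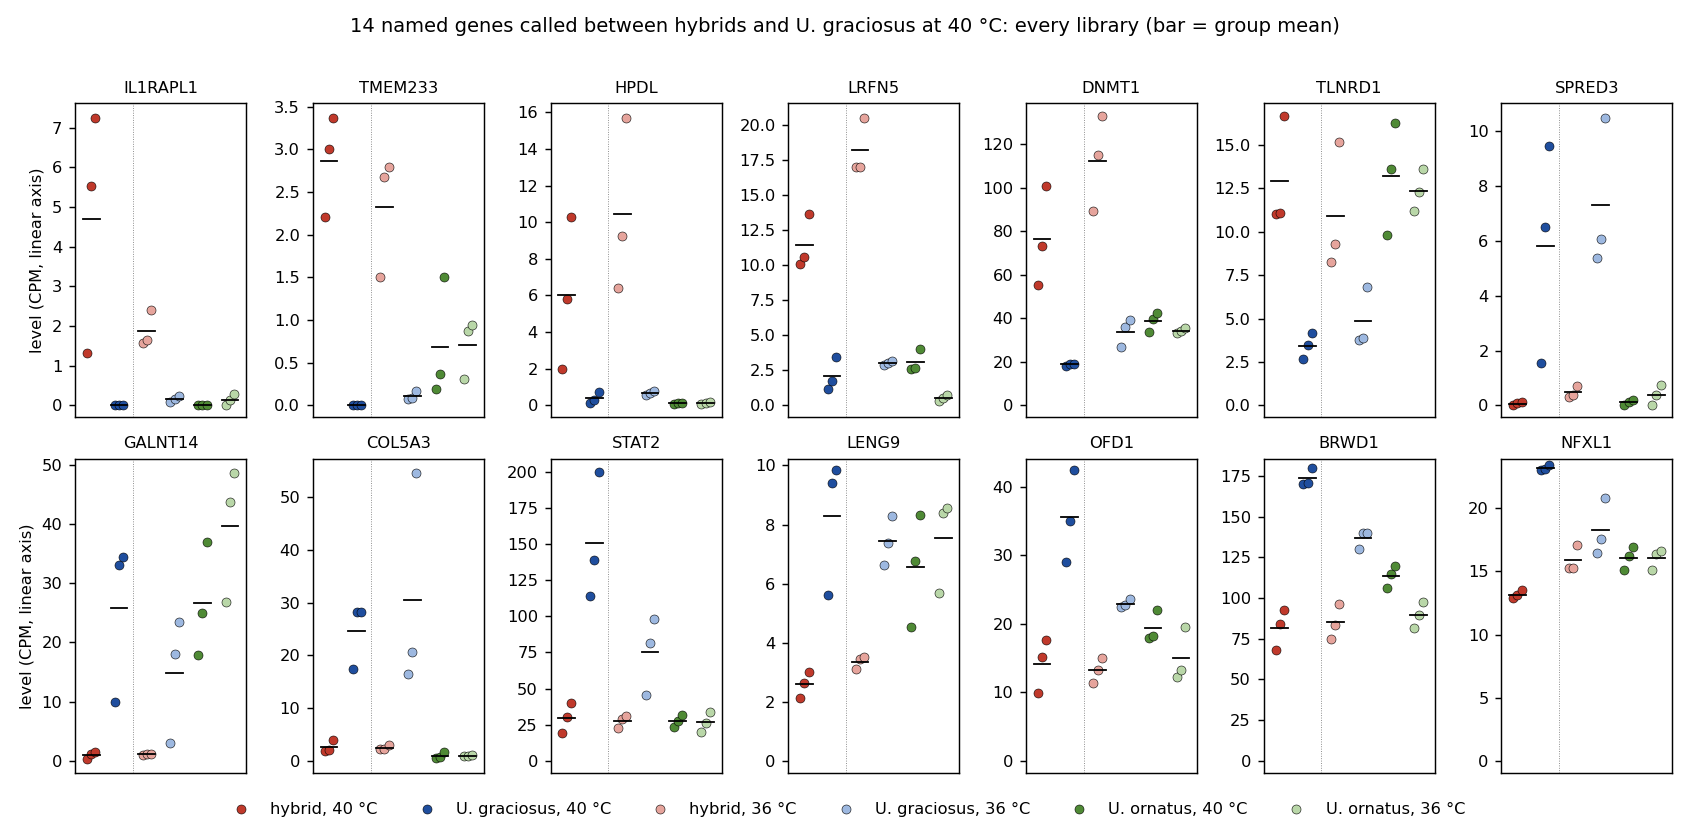
CPM (linear axis from 0, own range in each panel) of the 14 called genes that carry a symbol in all 18 livers, 1 point per animal and a bar at the group mean; 40 °C hybrids and U. graciosus stand left of the dotted line. In every panel the 3 hybrids at 40 °C lie on one side of the 3 U. graciosus, as DNMT1 does at 55.4 CPM or more against 19.2 CPM or less.

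Among the placeholder genes, 4 are given here for their near absence in one group. LOC121924397 stood at 3.09, 4.79 and 2.73 CPM in the hybrids and at 0 in U. graciosus at 40 °C, at least 70.8-fold higher, or 35.5-fold with halved counts (adjusted p = 0.00298), and passed in all 6 leave-outs (up to 0.025). LOC121935084 stood at 49.2, 58.6 and 10.6 CPM against 0.615, 1.98 and 0.8 CPM, a difference of 5.05 ± 0.74 (adjusted p = 0.0112; lost without P at 0.074, Q at 0.0533 and T at 0.0685). Both were present in all 6 U. ornatus, at 2.81 to 10.3 and 26.5 to 135 CPM, so the hybrids resembled that parent in having a signal. LOC121920535 had 0 counts in all 6 hybrids of both temperatures and 1.35, 1.71 and 2.67 CPM in P, Q and T, at least 48-fold lower, or 24-fold with halved counts (adjusted p = 0.0342), with at most 0.184 CPM in U. ornatus. LOC121923508 stood at 0.209, 0.594 and 0.105 CPM against 7.32, 21.4 and 54.1 CPM (adjusted p = 0.0499), and was present in both parents, at 1.11 to 7.44 CPM in U. ornatus. The calls of the last pair were lost in every leave-out (adjusted p of 0.0611 to 0.111 and of 0.0661 to 0.201). Reads of both species were aligned to a genome of another genus, and whether a sequence difference between the species changed the counts of these or the named genes was not tested.

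The same lineages at 36 °C were compared in 6 other animals. Levels and directions there come from those animals alone, but the p-values share an estimate of the spread with the 40 °C test. There 13 genes passed (0.082%), 9 higher and 4 lower in hybrids, and 8 passed at both temperatures, which is 40% of the calls at 40 °C and 61.5% of those at 36 °C. All 20 genes called at 40 °C kept their direction at 36 °C, against 63.5% of all genes tested. Of these, 19 had an unadjusted p under 0.05 (7.86% of all genes, either direction). The same 19 had groups that did not overlap, but that share was not counted over all genes at 36 °C. The 36 °C difference was 0.704 of the 40 °C one in the median gene on the log2 scale, from 0.249 for NFXL1 to 1.12. The genes were chosen by their test at 40 °C, which favours larger differences there, so this ratio does not measure an effect of temperature. It also includes genes without counts in a group, whose log2 difference depends on the prior count. Across all genes the log2 differences at both temperatures correlated at Pearson's r = 0.427 (Spearman's rho = 0.365), a description over genes that are not independent. The difference between the temperatures was itself tested, and 0 of 15856 genes passed by edgeR or limma voom and 3 by DESeq2, with 545 (3.44%) at an unadjusted p under 0.05. By edgeR and limma voom, then, no gene passed as differing between hybrids and U. graciosus by another amount at 40 °C than at 36 °C. Among the 20 genes the smallest unadjusted p of that test was 0.00504, for IL1RAPL1.

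**Figure D3:**
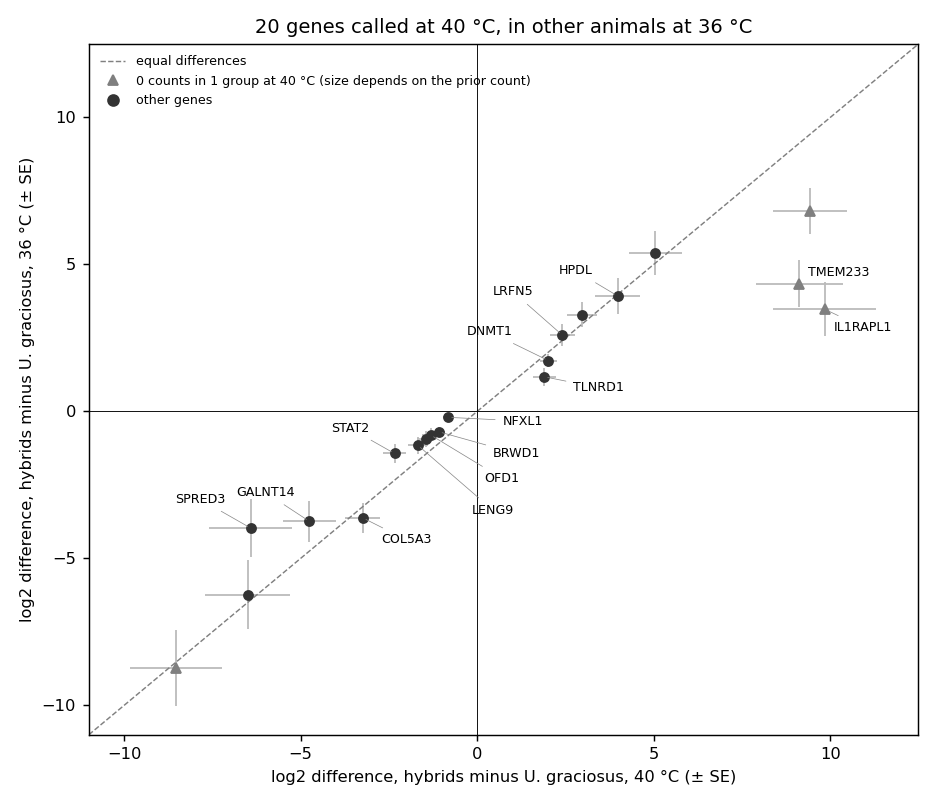
Log2 difference between hybrids and U. graciosus (± SE) at 40 °C on the horizontal axis and in other animals at 36 °C on the vertical axis, for the 20 genes called at 40 °C; the dashed line marks equal differences and triangles mark genes with 0 counts in 1 group. All 20 genes fall in the quadrants of equal sign, with NFXL1, at -0.82 and -0.20, closest to no difference at 36 °C.

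Set against the parents, some called genes lay outside both species in all 6 hybrids, while at others the hybrids overlapped U. ornatus or, as for COL5A3, lay between the parents. All 6 hybrids were above all 12 parent animals for 6 of the 20 genes, among them DNMT1, TMEM233, LRFN5, HPDL and IL1RAPL1, and below all 12 for 3, among them GALNT14 and LENG9. For the other 11 the hybrids lay neither above nor below all 12 parents. These shares were not counted over all genes tested. The 20 genes were called between hybrids and U. graciosus at 40 °C, so part of this separation was set by that choice. U. ornatus differed from U. graciosus at 36 °C in the direction of the hybrids for 15 of the 20 genes, against 53.6% of all genes, and 10 of these passed in that comparison, where 2353 genes did (14.8%), 7.06% higher and 7.78% lower in U. ornatus. For LRFN5 and HPDL the parental difference passed with the opposite sign, -2.48 (adjusted p = 0.000861) and -2.19 (0.0397), so that U. ornatus was below U. graciosus while the hybrids were above it. Each animal was also placed between the parents over 1808 genes that differed between them at 36 °C (adjusted p under 0.05 and a difference of at least 1 in log2 CPM), from 0 at the U. graciosus mean to 1 at the U. ornatus mean. The median place was 0.046 for hybrid I, 0.057 for K and 0.237 for X, against 0.044 to 0.073 for the U. graciosus at 40 °C. The hybrids at 36 °C had medians of 0.06 to 0.065. Hybrids I and K thus lay as near to U. graciosus at 36 °C as U. graciosus of the warmer group did. X lay farther off, with a wide spread over genes, the quartiles being -0.096 and 0.604 against -0.157 and 0.272 for I. X also stood apart in hepatocyte, cell cycle and fibroblast genes, and whether that moved its place was not tested.

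STAT2, a factor of interferon signalling, was lower in hybrids than in U. graciosus, as were the values of most interferon response genes. Interferons are signals released on viral infection, and STAT2 and IRF9 help carry the type I signal to the genes that limit viral replication. STAT2 was the one member of any of the gene lists that passed by edgeR, while DESeq2 called 41 list members and limma voom 13. Over all 15856 genes these fits called 20, 425 and 168, in that order. The list members tested were not counted together, so their share was not compared with that of all genes. Its level was 30.4, 40 and 19.1 CPM in hybrids and at 114, 200 and 139 CPM in U. graciosus. Even the highest hybrid was below the lowest U. graciosus. The difference was -2.34 ± 0.33 (adjusted p = 0.0104), 5.07-fold, with the call lost without I (0.0634) and Q (0.067) and kept without X (0.041) and T (0.0226). At 36 °C the hybrids stood at 31.2, 23 and 29.2 CPM and U. graciosus at 45.2, 98.1 and 81.7 CPM, -1.43 ± 0.32 (adjusted p = 0.109). U. ornatus, at 19.6 to 33.8 CPM, lay near the hybrids.

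Of 40 interferon genes listed, 25 were tested, and 19 were below U. graciosus and 6 above. The median difference was -0.57, against 0.03 over all genes, and 10 members had an unadjusted p under 0.05, all of them lower in hybrids (4.88% of all genes). In 10 members all 3 hybrids lay below all 3 U. graciosus, and in none above, against 7.26% and 7.04% of all genes. At 36 °C the median was -0.65, with 21 of 25 below and 9 at an unadjusted p under 0.05, all lower (4.11% of all genes). Without X the median was -0.34, without T -0.71 and without both -0.49. The summed level of the list was 484, 620 and 436 CPM in I, K and X and 894, 1051 and 1066 CPM in P, Q and T, with no overlap. This list, like the others, was written with earlier results of these data known.

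The members that follow did not pass by edgeR and were chosen after their values were seen. DHX58, a sensor of viral RNA, stood at 9.28, 12.2 and 5.49 CPM in hybrids and 52.9, 53.9 and 84.4 CPM in U. graciosus, -2.83 ± 0.62 (adjusted p = 0.0991). ISG15, a ubiquitin-like tag induced by interferon, was at 3.34, 4.71 and 4.76 against 18.1, 20.5 and 36 CPM, -2.54 ± 0.57 (0.109). Both showed wide gaps between the groups at 40 °C. Both passed by DESeq2 (adjusted p = 0.0005 and 0.00128) but not by limma voom (0.0529 and 0.0654). USP18, which removes the ISG15 tag, stood at 2.67, 3.17 and 1.12 against 6.76, 13.4 and 18.2 CPM, -2.46 ± 0.60 (0.142; 0.00432 by DESeq2 and 0.142 by limma voom). ADAR, which edits double-stranded RNA, stood at 30.3, 30.8 and 56.6 against 78.5, 88.1 and 94.9 CPM, -1.15 ± 0.31 (0.167), and passed by DESeq2 (0.0328) and limma voom (0.00807). EIF2AK2, the kinase that halts translation on viral RNA, was at -1.24 ± 0.36 (0.185; 0.0454 by DESeq2) and DDX58, the RNA sensor RIG-I, at -1.52 ± 0.49 (0.224), each without overlap. IRF9 was at -0.78 ± 0.35 (0.366), also without overlap, and at -0.34 without X. DDX60, a helicase that the list does not hold, was likewise chosen after its values were seen and showed a larger gap. It stood at 70.5, 74.2 and 18.5 CPM in hybrids and 663, 609 and 566 CPM in U. graciosus. The difference was -3.49 ± 0.84 (adjusted p = 0.135 by edgeR, 0.000534 by DESeq2 and 0.0455 by limma voom), and -4.25 ± 0.87 at 36 °C. U. ornatus, at 4.36 to 109 CPM, overlapped the hybrids. At 36 °C U. ornatus differed from U. graciosus by -3.42 in DDX60, while the interferon list had a median of 0.01 in that comparison. Receptors and adaptors near the top of the pathway, such as IFNAR1, IFNAR2 and MAVS, overlapped between the groups. The summed macrophage markers were 391, 563 and 845 CPM in hybrids and 387, 316 and 286 CPM in U. graciosus, and their part in this result was not tested.

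**Figure D4:**
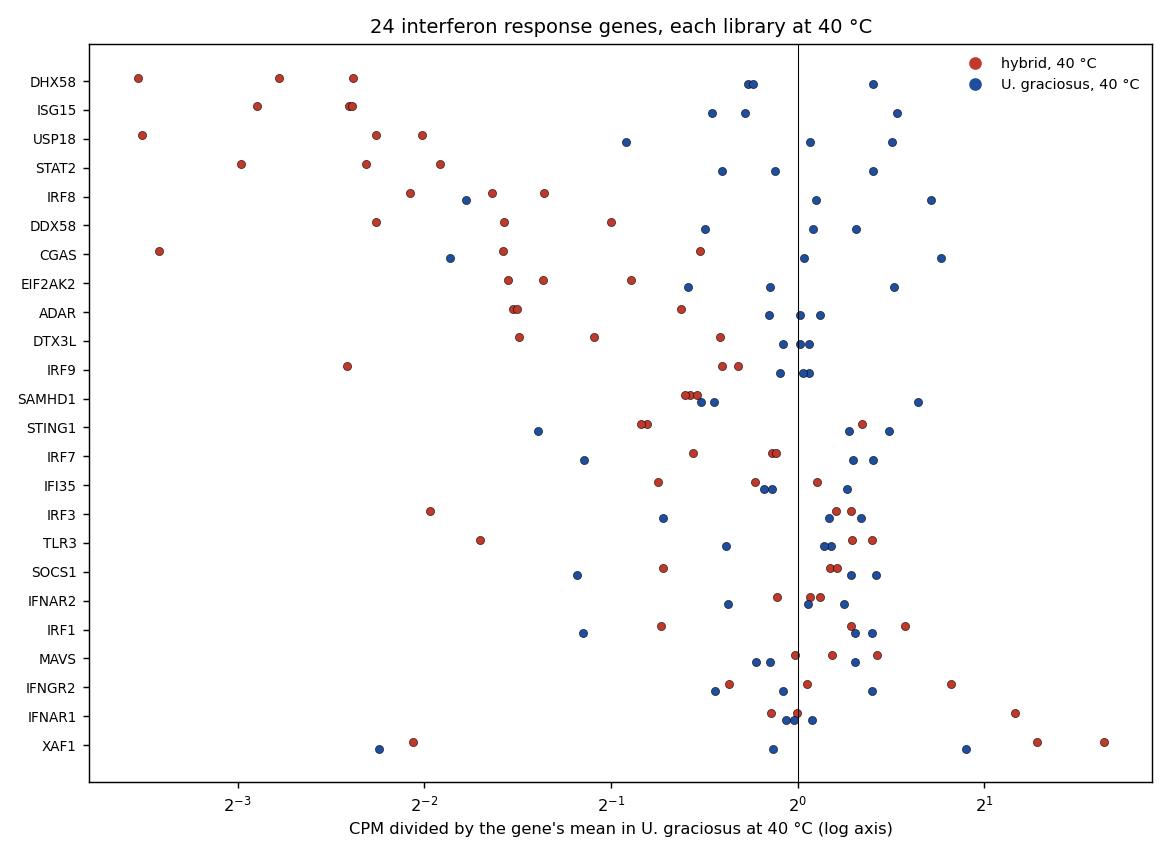
CPM of 24 interferon response genes in each 40 °C liver, divided by the gene's mean in U. graciosus at 40 °C (log axis), sorted by the fitted difference, hybrids in red and U. graciosus in blue. For 10 genes, among them DHX58, ISG15 and STAT2, all 3 hybrids lie left of all 3 U. graciosus (7.26% of all genes). IFNAR1, IFNAR2 and MAVS mix.

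No antioxidant enzyme passed at 40 °C by edgeR, and most members of the superoxide and peroxide list had higher values in hybrids. Of 17 tested, 13 were above U. graciosus and 4 below, with a median of 0.51 against 0.03 over all genes. There were 3 with an unadjusted p under 0.05, all higher (7.76% of all genes), and 5 with all 3 hybrids above all 3 U. graciosus (7.04% of all genes). At 36 °C the median was 0.18, and without X and T it was 0.32. PRDX6, a peroxiredoxin that reduces lipid peroxides with glutathione, stood at 149, 134 and 117 CPM in hybrids and 66.9, 64.6 and 68.7 CPM in U. graciosus. The groups were tight and well apart, and the difference was 1.0 ± 0.25 (adjusted p = 0.144 by edgeR). It passed by DESeq2 (1.01, adjusted p = 0.00895) and by limma voom (1.08, 0.0205). At 36 °C they overlapped, at 85, 145 and 115 against 71.8, 85.2 and 131 CPM, with a difference of 0.26 ± 0.25. PRDX2, another peroxiredoxin, chosen after its values were seen, stood at 31.3, 30.8 and 83.7 against 21, 22.7 and 16.5 CPM, 1.28 ± 0.45 (adjusted p = 0.259; 0.64 without X), and was also above at 36 °C (1.04 ± 0.45).

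The mitochondrial superoxide dismutase SOD2 stood at 193, 193 and 160 CPM in hybrids and 133, 138 and 144 CPM in U. graciosus, 0.40 ± 0.24 (adjusted p = 0.513). GPX4, the glutathione peroxidase of membrane lipids, stood at 302, 276 and 272 against 253, 166 and 178 CPM, 0.51 ± 0.34 (0.562). Neither group overlapped the other in these genes. Cytosolic SOD1 stood at 627, 723 and 435 against 577, 761 and 594 CPM (-0.11 ± 0.32), catalase (CAT) at 3151, 4273 and 1764 against 2831, 3135 and 2672 CPM (0.09 ± 0.50), and mitochondrial PRDX3 at 334, 261 and 136 against 222, 282 and 275 CPM (-0.09 ± 0.38). In all 3 the groups overlapped, with X the lowest animal, and without X the differences were 0.08, 0.38 and 0.21. GPX1 was at 0.74 ± 0.40 and also overlapped, with 0.31 without X, 0.43 without T and 0.0 without both. The enzymes that recycle the thiol donors, TXNRD1 for thioredoxin and GSR for glutathione, were at 0.95 ± 0.44 (adjusted p = 0.386) and 0.30 ± 0.28 (0.715; 0.05 without T). TXNRD1 rested on X, with 7.4, 9.3 and 36.4 CPM against 9.1, 10.7 and 7.6 CPM, and was at -0.12 without it. The thioredoxin list had a median of 0.30 over 13 tested members, and of -0.12 without X. At 36 °C GPX1 stood at 253, 209 and 221 CPM in hybrids and 96.8, 195 and 97.6 CPM in U. graciosus. Its difference there was 0.81 ± 0.40 (adjusted p = 0.665 by edgeR), while TXNRD1 was at 0.09 ± 0.44 and GSR at 0.38 ± 0.28.

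**Figure D5:**
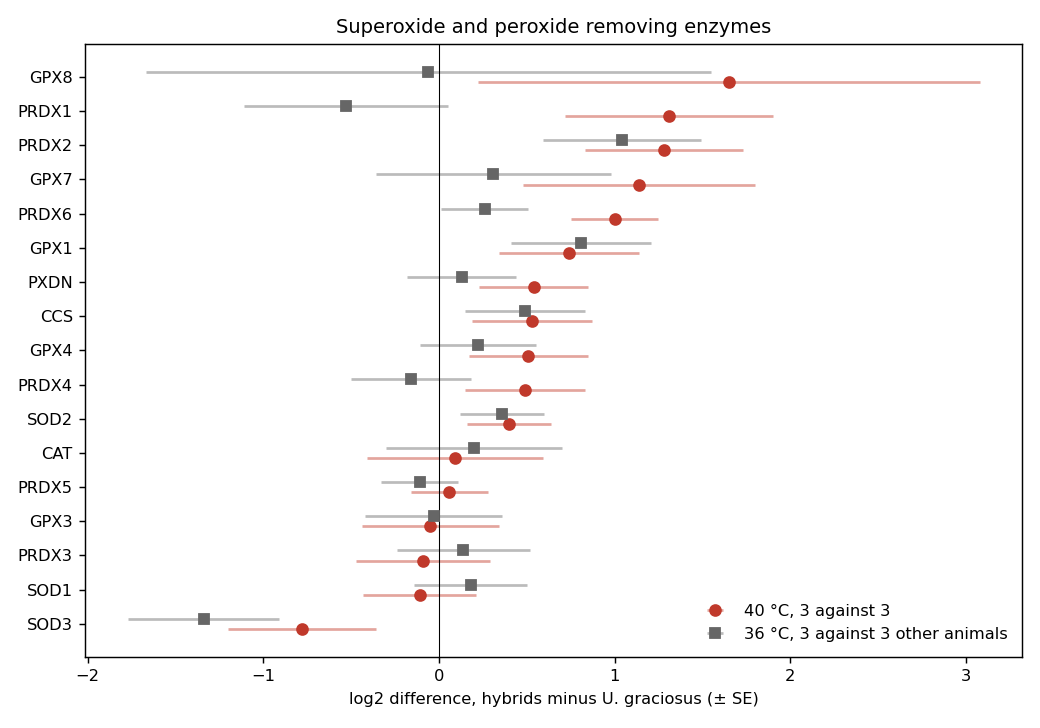
Fitted log2 difference between hybrids and U. graciosus (± SE) for the 17 superoxide and peroxide removing enzymes tested, at 40 °C (red circles) and in other animals at 36 °C (grey squares). At 40 °C 13 enzymes lie right of 0, PRDX6 at 1.0 ± 0.25, and none passed edgeR's test across all genes, though PRDX6 passed by DESeq2 and limma voom.

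Genes that respond to oxidants or mend oxidised DNA did not pass by edgeR either. HMOX1, the haem-degrading enzyme that oxidants induce, stood at 74.7, 98.5 and 370 CPM against 90.4, 119 and 125 CPM, 0.70 ± 0.48 (adjusted p = 0.583), with X alone above all 3 U. graciosus and a difference of -0.35 without it. NQO1, a quinone reductase, was low throughout, at 0.95 to 1.12 CPM in hybrids and 0.4 to 1.64 CPM in U. graciosus. OGG1, which cuts oxidised guanine out of DNA, was at 0.23 ± 0.30 (0.05 without T), and NBN, a sensor of broken DNA ends, at -0.03 ± 0.17. The NRF2 and NADPH list had a median of -0.05 over 24 members, with 9 above and 15 below. The double-strand break list had a median of 0.18, which turned to -0.09 without X. The base excision list had a median of 0.1, which turned to -0.16 without X and T. In the double-strand break list, 4 of 33 members had an unadjusted p under 0.05 above U. graciosus and 1 below, and in the base excision list 2 of 25 above and none below, where 7.76% of all genes stood above and 4.88% below at that p. ATM, the kinase that signals DNA breaks, chosen after its values were seen, was the member below, at 48.4, 44.5 and 44.4 against 67.3, 59.9 and 74.2 CPM, -0.55 ± 0.16 (adjusted p = 0.183 by edgeR, 0.0141 by DESeq2 and 0.0694 by limma voom). Its groups did not overlap at 36 °C either, where the difference was -0.34 ± 0.16. HMOX1 at 36 °C stood at 96.9, 64.6 and 107 CPM in hybrids and 130, 351 and 258 CPM in U. graciosus. That difference was -1.46 ± 0.49 (adjusted p = 0.37 by edgeR).

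Most tested nuclear genes for subunits of the respiratory chain had slightly higher values in hybrids than in U. graciosus when all animals were kept. Of 43 listed members of complexes II to V, only 17 were in the count table and tested. All 17 had a positive difference, with a median of 0.36, and 6 had all hybrids above all U. graciosus (7.04% of all genes). Without X 16 were positive, without T 15 and without both 13. The median was 0.30 without X and T and 0.21 at 36 °C, where 14 of 17 were positive and none had an unadjusted p under 0.05. ATP5F1A, the alpha subunit of ATP synthase, chosen after its values were seen like the other genes of this paragraph, stood at 713, 738 and 736 CPM against 427, 421 and 333 CPM, 0.89 ± 0.27 (adjusted p = 0.206). ATP5F1B, its catalytic beta subunit, stood at 1076, 1293 and 1195 against 671, 712 and 623 CPM, 0.83 ± 0.27 (0.224). Hybrid X stood with I and K in both, and both passed by DESeq2 (adjusted p = 0.0173 and 0.0211) but not by limma voom (0.0654 and 0.0717). SDHA, the flavoprotein of complex II, was at 131, 128 and 100 against 77.8, 81.7 and 70.3 CPM, 0.65 ± 0.23 (0.25). In complex I, 27 of 35 members were positive, with a median of 0.16, and 3 had an unadjusted p under 0.05, all above (7.76% of all genes). Without T the complex I median was 0.03, with 18 members above and 17 below. The 22 assembly factors tested were split, 11 above and 11 below, with a median of 0.02. Of the mitochondrial chaperones and proteases, 7 of 17 had all hybrids above all U. graciosus and 5 an unadjusted p under 0.05, all above, with a median of 0.26, against 7.04% and 7.76% of all genes. HSPA9, the HSP70 of the matrix, was at 385, 353 and 682 against 276, 281 and 312 CPM, 0.71 ± 0.33 (0.377; 0.37 without X). SUPV3L1, a helicase that turns over mitochondrial RNA, stood at 21.5, 23.5 and 25.1 against 13.2, 14.9 and 11.3 CPM, 0.83 ± 0.19 (adjusted p = 0.113 by edgeR, 0.00266 by DESeq2 and 0.0451 by limma voom), and was at -0.08 ± 0.19 at 36 °C.

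Cytosolic heat shock genes were uneven in U. graciosus, so that the list turned its direction with 1 animal. HSP90AA1, the inducible HSP90, was counted at 403, 417 and 1694 CPM in I, K and X of the hybrids, and P, Q and T had 589, 570 and 10847 CPM. DNAJB1, an HSP40 partner of HSP70, stood at 49.5, 51.6 and 187 against 59.1, 57.8 and 2196 CPM. In both, I and K lay just below P and Q, X lay above P and Q, and T lay far above all. The differences were -2.26 ± 0.95 (adjusted p = 0.335) and -3.01 ± 1.02 (0.238), and without T they turned to 0.53 and 0.72. Without both X and T they were -0.49 and -0.2. HSPA8, HSPH1 and the endoplasmic HSPA5 were at -1.28 ± 1.06, -1.17 ± 0.99 and -1.34 ± 0.97, again with T highest, and without T they were at 1.67, 1.63 and 0.52. Without both X and T these 3 genes were at -0.09, -0.03 and 0.35. HSPA8, for one, stood at 62.6, 107 and 697 CPM in I, K and X. Over 42 members the median was -0.16, with 25 below and 7 at an unadjusted p under 0.05 below against 1 above, where 4.88% of all genes stood below and 7.76% above. The median was 0.40 without T, -0.38 without X and -0.10 without both. SERPINH1, the collagen chaperone, stood at 29.2, 15.7 and 151 against 14.8, 17.2 and 139 CPM, high in X and in T alike. Its difference of 0.20 became -1.31 without X, 2.03 without T and 0.49 without both. HSF1, the factor that switches these genes on, was at 0.31 ± 0.20 (adjusted p = 0.539). It was at 0.47 without X, 0.49 without T and 0.64 without both. At 36 °C HSF1 stood at 26.9, 29.5 and 33.1 CPM in hybrids and 20.2, 17.4 and 17.9 CPM in U. graciosus. That difference was 0.69 ± 0.20 (adjusted p = 0.262 by edgeR).

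Of the metabolic lists, gluconeogenesis and glycogen held the most members at an unadjusted p under 0.05, 7 of 28 and all above (7.76% of all genes). In 7 members, not necessarily the same ones, all hybrids lay above all U. graciosus (7.04% of all genes). The median was 0.22, and it was 0.41 without X and T and 0.35 at 36 °C, where again 7 had an unadjusted p under 0.05 above (3.75% of all genes). The summed level of the list overlapped between the groups, with X the lowest animal. It was 34823, 34614 and 12915 CPM in I, K and X and 27749, 26119 and 20044 CPM in P, Q and T. PFKL, the liver phosphofructokinase of glycolysis, chosen like the others here after its values were seen, stood at 79.6, 69.5 and 33.8 against 22.7, 28 and 27.2 CPM, 1.23 ± 0.30 (adjusted p = 0.144). At 36 °C it stood at 84, 74.9 and 70.3 against 35.2, 30.6 and 26.4 CPM, 1.31 ± 0.30 (0.114). The hybrids were thus above in both sets of animals, with X the nearest to U. graciosus, and PFKL passed at 40 °C by DESeq2 (adjusted p = 0.0113) and limma voom (0.003). FOXO1, a transcription factor of fasting, was at 18.5, 15.8 and 12.1 against 7.93, 8.13 and 7.53 CPM, 0.97 ± 0.32 (0.227), and at 1.29 ± 0.32 at 36 °C. PCK1, a gluconeogenic enzyme, reached 719 CPM in X and stayed under 1 CPM in the other 5. Its difference of 10.21 (adjusted p = 0.192 by edgeR) thus rested on X, and it was 0.73 without X. The haem and iron list as a whole had a median of -0.02 over 30 tested members, with 14 above and 16 below. In haem synthesis, FECH, which inserts iron into haem, stood at 224, 184 and 113 against 87.9, 88.1 and 50.1 CPM, 1.20 ± 0.34 (0.173), and UROD, an earlier enzyme, at 25.1, 25.2 and 46.7 against 18, 16.4 and 14.6 CPM, 0.99 ± 0.27 (0.167; 0.64 without X). FECH passed by DESeq2 (adjusted p = 0.0255) and limma voom (0.0246), and UROD by DESeq2 alone (0.0292). TKT, the transketolase of the pentose phosphate pathway, stood at 834, 613 and 294 against 231, 223 and 285 CPM, 1.24 ± 0.43 (0.249), and passed by limma voom alone (0.0239).

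Cell cycle genes and markers of other liver cells showed where animal X weighed on the lists. All 38 cell cycle genes were positive at 40 °C, with a median of 2.53 and 28 at an unadjusted p under 0.05, but 2 had all hybrids above all U. graciosus, against 7.76% and 7.04% of all genes. The median fell to 0.26 without X and was 0.97 without X and T. At 36 °C all 38 were positive too, with a median of 1.15 and 2 at an unadjusted p under 0.05 (3.75% of all genes higher in hybrids). Over all genes tested, 8269 of 15856 were positive at 40 °C. The stellate cell and fibroblast list went from 0.86 to -0.15 without X, and SPP1, an osteopontin made by bile duct and other cells, stood at 1145 CPM in X and 30.8 to 56.9 CPM in the others. All 11 macrophage markers were positive, with a median of 0.97, 0.63 without X and 0.20 at 36 °C, where 7 of 11 were. Of these, 4 had an unadjusted p under 0.05, and 4 had all hybrids above all U. graciosus, against 7.76% and 7.04% of all genes. C1QC, a complement chain made by macrophages, was among the latter, at 70.4, 107 and 129 against 60.5, 67 and 57.5 CPM, 0.73 ± 0.41 (adjusted p = 0.493; 0.54 without X). MARCO, a scavenger receptor of macrophages, overlapped, at 103, 128 and 209 against 128, 55 and 32.7 CPM. Whether the cell makeup of the livers had a part in any difference was not tested.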

How the data were processed

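Liver RNA was made into directional libraries per the labels' protocols. The tools that the authors named, per the submitters' processing notes, are Trim Galore 0.6.4, STAR, Subread and DESeq2, and the series' design text names a Sceloporus undulatus genome. Raw counts for 22773 genes, 9041 of them with placeholder names, were deposited by the authors. Build, annotation and strand setting were not found in the sources. In the 6 libraries, 72.9% to 76.4% of counts from 1 to 20 were even, so a count may not be 1 fragment.

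Genes were filtered by filterByExpr on the 6 groups, scaled by TMM and fitted in edgeR 4.0.16 (R 4.3.3, robust quasi-likelihood, all 18 libraries, 1 mean per group), with Benjamini-Hochberg adjustment over 15856 genes. SE is the log2 difference over the root of F. Alternatives used DESeq2 1.42.0, limma 3.58.1 voom, RLE factors, other filters, a log2 threshold of 1, halved counts, the compared groups alone, and libraries left out. The code was tested on simulated data. No sequences were used. One member of the interferon list is counted with it but not reported here on its own. The folds given as at least a value cover counting error only, while the SE includes the spread between animals.

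The 54 gene lists, their members and the rule for named genes were fixed with earlier results of these data known. The 6 animals were set by their labels. Named genes were the called genes with a symbol (a mean of at least 1 CPM, the 10 largest each way, the 6 smallest p each way, and up to 5 each way at 0 counts in one group), up to 3 called members of each list, 20 fixed antioxidant, heat shock and repair genes, the 3 smallest p for the difference between temperatures, and the 2 most abundant markers of each cell type; others are said to be chosen after their values were seen.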

Additional observations from a re-analysis of the deposited data

Results flagged for a closer look

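Of the genes named by rule, 2 had hybrids and U. graciosus fully separated at both temperatures but in opposite directions. The share of all genes that did so was not counted, while at 40 °C alone 7.04% were fully separated above and 7.26% below. Both genes were picked by the test of the difference between temperatures, so part of this pattern was set by that choice. PIK3R1, the regulatory subunit of the kinase that carries the insulin signal, had 145, 182 and 188 CPM in I, K and X, and P, Q and T lay above them with 236, 271 and 364 CPM. At 36 °C the order was the reverse, with 642, 433 and 218 CPM in A, B and D and 175, 181 and 164 CPM in J, R and S. The difference of differences was -2.07 on the log2 scale. LINGO2, a leucine-rich membrane protein, had 0.0836, 0.317 and 2.73 CPM in the hybrids at 40 °C, where every U. graciosus was at 0. At 36 °C the hybrids had 0.0619, 0.215 and 0.101 CPM and U. graciosus 0.576, 1.07 and 4.73 CPM, and the difference of differences was 11.7, a size that depends on the prior count because a group is at 0. Both genes were picked for the smallest p in that test among genes with a symbol, and neither passed across all genes in edgeR (adjusted p = 1).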

How the results depend on the processing

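The 20 calls at 40 °C became 425 with DESeq2, 168 with limma voom, 3 with a log2 threshold of 1, 2 with the compared groups alone, 4 without hybrid X and U. graciosus T, and 3 to 24 with 1 library left out. RLE factors, both other filters and halved counts stayed within 1.5 times, and none of the 20 genes changed sign in any fit. The 1 call among list members became 41 with DESeq2, 13 with voom, 0 with the log2 threshold, the compared groups alone or without X and T, and 0 to 2 with 1 library left out. At 36 °C the 13 calls became 206, 275, 4 and 27 with DESeq2, voom, the threshold and the compared groups alone, and 3 to 56 in the leave-outs. The 0 calls for the difference between temperatures became 3 with DESeq2. The 2353 parental calls became 3637 with voom, 469 with the threshold and 1324 to 1775 in the leave-outs, alternatives chosen after seeing the data. Of 801 values of uncalled named genes, 77 changed sign, and of 750 list medians 55 moved by 1 SD between animals or more, 11 without X, 10 without T and 13 without both. The cause was not tested. No paired analysis was possible because each letter names 1 animal of 1 group.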

Other observations

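Most ribosomal protein and proteasome genes had values slightly above U. graciosus in the hybrids at 40 °C. Of 72 cytosolic ribosomal protein genes tested, 62 had a positive difference, with a median of 0.21, and 12 had all 3 hybrids above all 3 U. graciosus (7.04% of all genes). The median was 0.07 without hybrid X and U. graciosus T and 0.09 at 36 °C, and without T alone 35 genes were above and 37 below. Of 35 proteasome genes, 34 were positive, with a median of 0.27, which was 0.05 without X, 0.16 without both and -0.07 at 36 °C. Fatty acid oxidation and ketone synthesis had 23 of 30 members positive, with a median of 0.15, or 0.33 without both. Acute phase and complement genes had a median of -0.33 with all animals and of 0.40 without both, so their direction turned. No member of these lists passed by edgeR.

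Summed markers of blood cells and of neighbouring tissues overlapped between the groups. All 9 erythrocyte markers tested were below U. graciosus, with a median of -0.87, or -0.33 without X. Their summed level was 397, 281 and 55.1 CPM in I, K and X and 510, 515 and 212 CPM in P, Q and T, so the groups overlapped. Pancreas markers, which code for digestive enzymes, summed to 813, 159 and 53.4 CPM in I, K and X and to 5.16, 443 and 18.1 CPM in P, Q and T. CELA1, an elastase of the pancreas, showed the same spread, from 14.4 to 251 CPM in hybrids and 1.78 to 122 CPM in U. graciosus. T and NK cell markers summed to 8.92 to 40.2 CPM in hybrids and 13 to 23.5 CPM in U. graciosus. None of these lists held a gene that passed by edgeR.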
